A study of Mus musculus with 3 samples.

Results

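The 45 genes described here encode proteins of DNA replication and S phase. They were listed by name under a rule that uses no measured value, though the list was drawn up with earlier results of these data known, and run from the proteins that license origins to the cyclins that start S phase. All 45 were found on the array among 20660 named genes. They are represented by 51 probes of 55681, with 39 genes on 1 probe and 6 genes (Cdc6, Pole, Rfc4, Uhrf1, Chaf1b and Ccne1) on 2 probes.

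The arrays were one-colour Agilent mouse arrays of NIH3T3 cells, an established line of mouse embryonic fibroblasts labelled as wild type. Cells were grown to confluency in medium with serum. They were then collected 24 h after the addition of 20 μM AR7, after the addition of 20 μM BMS614, or without additions (None). AR7 is a ligand of retinoic acid receptor α (RARα) that activates chaperone-mediated autophagy (CMA), and BMS614 is a selective RARα antagonist. The comparisons ask what each compound did to transcript levels, and whether a CMA-activating ligand and a conventional antagonist differ. Both compounds were dissolved in DMSO, and the labels do not say whether the None culture received DMSO, so that compound and solvent cannot be told apart in a comparison with None. Each condition has 1 array, so no difference has a replicate check, no test was possible and no p-value is given. AR7 and BMS614 were each set against the same None array, so an unusual value on that array moves both differences the same way.

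Replication begins in G1, when the origin recognition complex, Cdc6 and Cdt1 load the ring of MCM proteins onto DNA. Cyclin E kinase and Cdc7 kinase then help Cdc45 and the GINS complex join the MCM ring to form the moving helicase, and primase, the polymerases, the clamp PCNA and its loader copy the strands behind it. Many of these genes are transcribed in late G1 and S phase through E2F factors, which is why their transcripts are widely read as a mark of proliferating cells. Normal fibroblasts slow or stop cycling at confluency.

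Promoter words are shown first, because they come from sequence and not from the arrays. In windows of 300 bases (250 before and 50 from the start site, RefSeq, GRCm38.p6), 37 of the 45 genes had an entry, with 43 windows. The genes without one were Mcm4, Gins1, Gins2, Gins4, Prim2, Pole, Rfc2 and Ccne2. E2F-type words (TTTCCCGC, TTTGGCGC, TTTCGCGC or TTTGCCGC, on either strand) lay in windows of 14 of the 37 genes (37.8%) and in those of 704 of all 27025 genes (2.6%). These 14 were Orc1, Cdc6, Cdt1, Mcm3, Mcm5, Mcm6, Mcm7, Gins3, Pola1, Pold1, Pole2, Rfc3, Lig1 and Uhrf1. The word CCAAT, on either strand, lay in windows of 22 of the 37 genes (59.5%) and of 41.1% of all genes. A match is only a run of letters, and binding was not measured here. Of the 14 genes, Mcm6, Mcm5 and Orc1 are printed because Mcm6 held the most matches, Mcm5 had the widest spread over the 3 arrays of any member with a mean log2 signal of 8 or more, and Orc1 was highest on the AR7 array. The 250 bases before each start are given 5′ to 3′ on the gene's strand with E2F-type words in capitals. A capital run longer than 8 letters holds overlapping words. Mcm6 lies on the minus strand at chr1:128359706-128359955, Mcm5 on the plus strand at chr8:75109259-75109508 and Orc1 on the plus strand at chr4:108579204-108579453.
Mcm6: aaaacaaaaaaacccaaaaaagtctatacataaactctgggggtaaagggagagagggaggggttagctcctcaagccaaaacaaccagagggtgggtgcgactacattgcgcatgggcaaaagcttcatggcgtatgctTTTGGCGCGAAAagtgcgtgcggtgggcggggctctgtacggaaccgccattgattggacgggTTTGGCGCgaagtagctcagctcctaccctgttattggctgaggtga
Mcm5: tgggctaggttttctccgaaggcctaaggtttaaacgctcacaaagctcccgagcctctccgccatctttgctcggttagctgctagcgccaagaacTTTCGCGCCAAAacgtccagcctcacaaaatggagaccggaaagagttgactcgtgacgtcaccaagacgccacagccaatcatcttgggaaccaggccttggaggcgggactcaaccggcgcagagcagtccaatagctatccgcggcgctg
Orc1: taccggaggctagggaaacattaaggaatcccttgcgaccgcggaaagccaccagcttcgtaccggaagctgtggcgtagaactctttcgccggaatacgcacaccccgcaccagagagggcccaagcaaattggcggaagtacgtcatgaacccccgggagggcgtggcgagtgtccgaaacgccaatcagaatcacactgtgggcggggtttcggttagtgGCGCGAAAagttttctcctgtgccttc
In these runs Mcm6 holds 3 matches, Mcm5 holds 2 and Orc1 holds 1.

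Values below are log2 signals after background correction and quantile normalization over the 3 arrays, and a log2 difference is one array's log2 signal minus another's. A gene is represented by its brighter probe. Signals of different genes come from different probes and are not compared with each other. The 75th percentile of spot intensity ranged from 692.5 (None) to 908.625 (BMS614), and 55.4% (None) to 61.8% (BMS614) of probes were well above background. The labelled cell type was checked against markers. All 10 fibroblast markers were well above background on all 3 arrays, among them Vim, Fn1 and Col1a2, although Col3a1 was dim at 5.21 to 5.55. Of 6 epithelial markers 2 (Krt8 and Cdh1, both dim) were above background on all arrays, and Epcam was above background on none. Of 5 blood markers 3 were above background on all arrays, of which the Itgam probe was bright (14.38 to 14.71), while Ptprc was dim (4.08 to 4.80). Of 4 endothelial markers 2 were above background on all arrays (Kdr at 13.08 to 13.22). The error of a difference was read from 267 probes printed 10 times on each array, and its SD fell with signal, from 0.43 in the dimmest bin to 0.049 in the brightest for AR7 against None. This SD covers spots of one hybridization and not the variation between cultures. In total RNA from a dish, fewer cells in S phase and less RNA per cell cannot be told apart.

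All 45 genes were detected well above background on all 3 arrays, and 44 had a mean log2 signal of 8 or more. The mean log2 signal ran from 6.34 (Ccne2) to 16.26 (Gins3). Replication transcripts were therefore measured in confluent cultures with and without either compound. Most moved little. The range of a gene over the 3 arrays had a median of 0.11 on the log2 scale, against 0.12 for the 10053 named genes at a signal of 8 or more. On the brighter probes, the narrowest range was that of Ccne1 (0.012) and the widest that of Ccne2 (0.54).

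**Figure D1:**
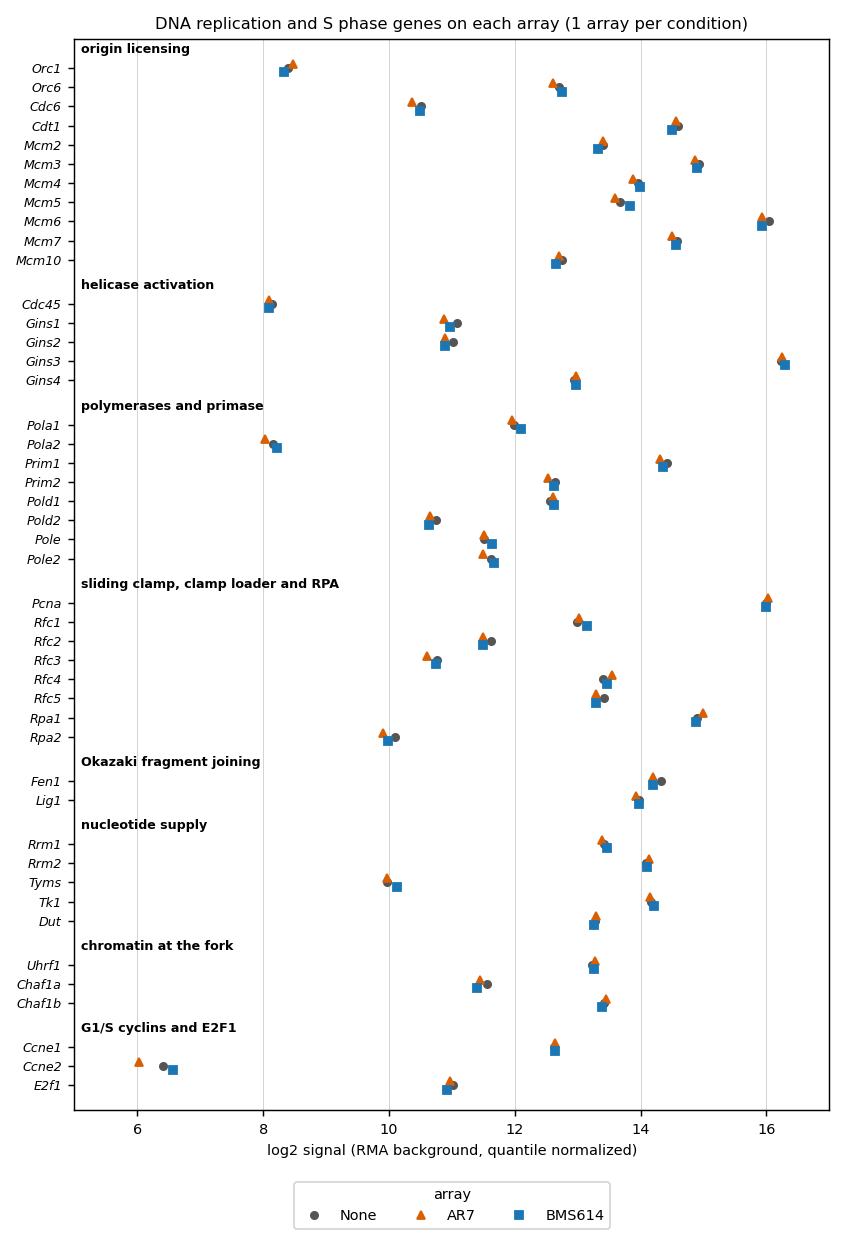
Log2 signal (x axis, RMA background, quantile normalized) of each of the 45 genes (rows, by role) on the None, AR7 and BMS614 arrays, 1 point per array. Within nearly every row the 3 points lie close together, the widest row being Ccne2 (6.03 to 6.57). Rows are different probes and are not compared.

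A gene was called at a 1.2-fold difference, a log2 difference of at least 0.263 in size, which is a description of 2 arrays and not a test. With AR7, 0 of the 45 genes were called higher than None, while 5.92% of all named genes were. One gene, Ccne2, was called lower, while 6.35% of all named genes were. With BMS614, 0 were called higher and 0 lower than None, against 6.87% and 7.61% of all named genes. Between the compounds, AR7 against BMS614, 0 were called higher (6.99% of all named genes) and 1 lower, again Ccne2 (6.73% of all named genes). Few dim genes are among the 45, and dim genes pass a fold more often. At a mean log2 signal of 8 or more, none of the 44 members was called in either direction with AR7, BMS614 or between them, where 3.17%, 5.02% and 4.37% of all such genes were. At 1.5-fold the counts were 0 of 45 in each comparison, beside 2.37% for AR7 against None, 2.9% for BMS614 against None and 2.55% for AR7 against BMS614. Shares this low correspond to only a few of 45 genes, and nothing particular to the replication genes is read from these counts.

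The differences were small but mostly on one side with AR7. The median log2 difference of the 45 genes was -0.039 for AR7 against None, with 30 below 0, where the median of all named genes was -0.0031 and 51.1% were below 0. It was -0.017 for BMS614 against None, with 24 of 45 below 0 (49.7% of all named genes), and -0.022 for AR7 against BMS614, with 27 below 0 (50.3%). Of the 45 genes, 38, 40 and 36 lay within 1.1-fold in these 3 comparisons, as did 70.1%, 64.9% and 65.4% of all named genes. Dim genes lower those shares, which were 81.7%, 75.7% and 77.0% of named genes at a mean log2 signal of 8 or more, and 88.3%, 83.9% and 83.8% at 12 or more, beside 84.4%, 88.9% and 80.0% of the members. The AR7 array held the lowest of the 3 values for 22 genes, BMS614 for 13 and None for 10. The same arrays were lowest for 32.0%, 34.9% and 33.1% of the 10053 named genes at a mean log2 signal of 8 or more. None was highest for 19 members, BMS614 for 16 and AR7 for 10, beside 31.7%, 37.1% and 31.2% of such genes. A distance of 2 SD of repeated spots was exceeded by 1 gene upward (Rfc4) and 11 downward with AR7, or 2.22% upward and 24.4% downward against 9.27% and 8.43% of all named genes. With BMS614 it was exceeded by 5 upward (Mcm5, Pola1, Pole, Rfc1 and Tyms) and 7 downward, or 11.1% and 15.6% against 13.3% and 11.9% of all named genes. Between the compounds 1 gene (Rpa1) was higher and 12 were lower with AR7 by this measure, or 2.22% and 26.7% against 13.2% and 13.4% of all named genes. The upward and downward shares were larger among named genes at a mean log2 signal of 8 or more. There they were 10.8% and 9.30% with AR7, 15.4% and 13.2% with BMS614, and 17.05% and 17.20% between the compounds. At 12 or more they were 11.6% and 8.48%, 15.1% and 15.4%, and 21.8% and 18.4% in the same order. The distance of 2 SD leaves out the variation between cultures, so passing it does not show an effect of a compound.

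**Figure D2:**
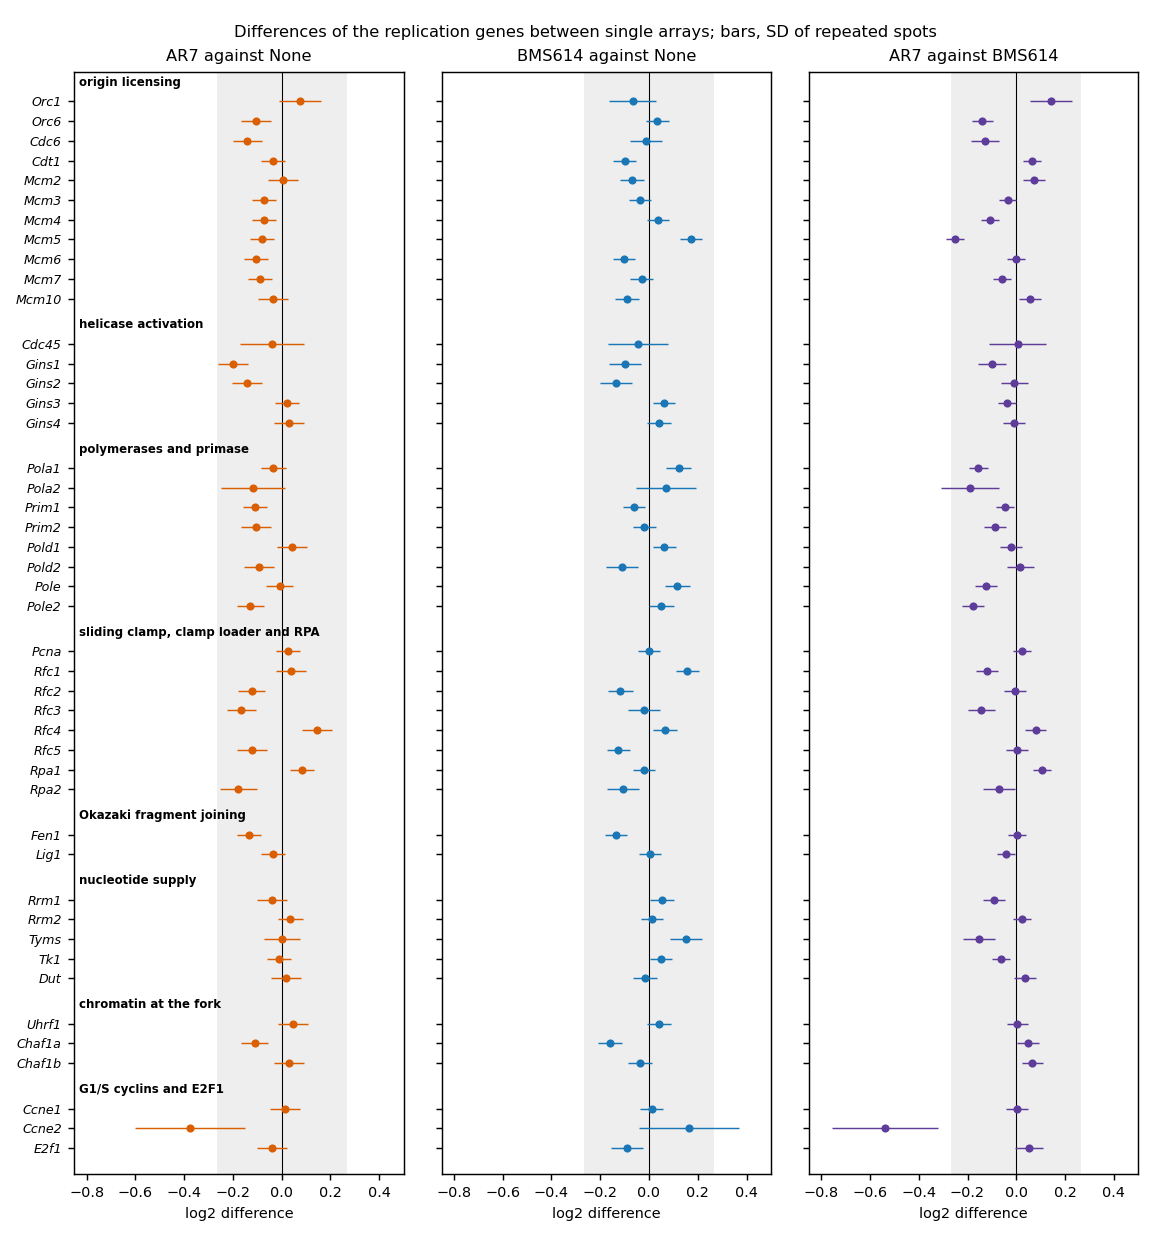
Log2 difference (x axis) of each of the 45 genes for AR7 against None, BMS614 against None and AR7 against BMS614, with bars of 1 SD of repeated spots and a grey band for differences under 1.2-fold. Ccne2 is the one gene outside the band, in the comparisons that hold the AR7 array, and 30 of 45 points lie left of 0 for AR7 against None.

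Origin licensing was measured by 11 genes. Mcm6, a subunit of the MCM ring, had log2 signals of 16.04 (None), 15.93 (AR7) and 15.93 (BMS614). Mcm3, another subunit, had 14.93, 14.86 and 14.90 in the same order. Cdt1, which helps load the ring, had 14.60, 14.56 and 14.50. None was the highest array for all 3, and the compounds were level with each other for Mcm6. The other MCM ring genes did not move together. Mcm5 had 13.67 (None), 13.59 (AR7) and 13.84 (BMS614), so that BMS614 differed from None by 0.17 (SD 0.046) and AR7 by -0.082 (SD 0.049). AR7 against BMS614 gave -0.25 (SD 0.037). For AR7 against None and for BMS614 against None, Mcm2 differed by 0.0042 and -0.069, Mcm4 by -0.073 and 0.036, and Mcm7 by -0.088 and -0.031. Mcm6, by comparison, differed by -0.11 and -0.10. Thus 5 of the 6 ring subunits were lower on the AR7 array than on None, a count of 5 or 6 under 6 other ways of processing, and 4 of 6 were lower on the BMS614 array under each of them.

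The loaders and the origin recognition complex were mixed. Orc1, the large ATPase subunit of the origin recognition complex, had 8.39 (None), 8.47 (AR7) and 8.33 (BMS614), a difference within 2 SD (SD 0.086) for AR7 against None. Orc6, its smallest subunit, had 12.71, 12.60 and 12.74. Cdc6, the ATPase that recruits the ring with Cdt1, had 10.51, 10.37 and 10.50. Orc1 was thus highest and Orc6 and Cdc6 lowest on the AR7 array. Mcm10, which acts as origins fire, differed by -0.034 with AR7 and -0.091 with BMS614. Over the 11 licensing genes the median was -0.073 with AR7 (9 below 0), -0.035 with BMS614 (8 below 0) and -0.036 for AR7 against BMS614 (7 below 0), and 0 of 11 were called in any of these. Over 6 other ways of processing these medians ran from -0.12 to -0.072, from -0.073 to -0.035 and from -0.065 to -0.028.

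Helicase activation was measured by Cdc45 and the 4 GINS genes, whose products complete the active helicase. Gins3 had log2 signals of 16.23 (None), 16.25 (AR7) and 16.29 (BMS614). Gins4 had 12.94, 12.97 and 12.98. Gins1 had 11.07, 10.87 and 10.97. Gins3 and Gins4 were highest on the BMS614 array here and Gins1 on None. The order for Gins3 turned with processing, its differences from None with AR7 and BMS614 being -0.038 and -0.051 with the scanner's processed signal and -0.034 and -0.020 in the deposited table, and Gins4 with AR7 was -0.0096 and -0.0016 under the same settings. Gins1 with AR7 was, after Ccne2, the lowest of all 45 differences from None (-0.20, SD 0.061), and it differed by -0.10 with BMS614. Gins2 was below None by a like amount with both compounds (-0.14 with AR7 and -0.13 with BMS614). With the scanner's processed signal its differences were smaller, -0.082 and -0.057. Cdc45 was close to 0 with both (-0.039 and -0.044, SD 0.13 and 0.12). The group's median was -0.039 with AR7 and -0.044 with BMS614. It was -0.011 for AR7 against BMS614, which turned to 0.0004 under 1 of 6 other ways of processing, and 0 of 5 genes were called.

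On their brighter probes, the 8 genes of the polymerases and primase were all within 1.2-fold in each comparison. Prim1, the catalytic primase subunit that lays RNA primers, had 14.42 (None), 14.31 (AR7) and 14.36 (BMS614). Its partner Prim2 had 12.64, 12.54 and 12.62. Pold1, the catalytic subunit of the lagging-strand polymerase δ, had 12.56, 12.60 and 12.62. Both primase genes were highest on None and lowest on AR7, whereas Pold1 was lowest on None. Pola1, the catalytic subunit of polymerase α that extends the primers, had 11.98, 11.95 and 12.10. Its accessory subunit Pola2 had 8.15, 8.03 and 8.22. Pole2, a subunit of the leading-strand polymerase ε, had 11.62, 11.49 and 11.67. All 3 were lowest on AR7 and highest on BMS614. The AR7 against BMS614 differences were -0.16 for Pola1 (SD 0.038), -0.19 for Pola2 (SD 0.12) and -0.18 for Pole2 (SD 0.045), and -0.12 for the brighter probe of Pole, the catalytic subunit of polymerase ε. Pold2, the accessory subunit of polymerase δ, was below None with both (-0.093 and -0.11) and was the one gene of the 8 above 0 between the compounds (0.016). The group's median was -0.10 with AR7 (7 of 8 below 0), 0.056 with BMS614 (3 of 8 below 0) and -0.11 for AR7 against BMS614 (7 of 8 below 0). Over 6 other ways of processing the last median ran from -0.11 to -0.067, the latter with the mean over a gene's probes, under which Pole was 0.34 (called higher). Over the same 6 the median for BMS614 against None ran from 0.015 to 0.055. The second probe of Pole was dim, with 5.84 (None), 5.99 (AR7) and 5.18 (BMS614), and gave 0.81 between the compounds (SD 0.39).

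Sliding clamp, clamp loader and single-strand binding genes were divided. Pcna, the clamp that tethers polymerases and the usual marker of S phase, had 15.998 (None), 16.02 (AR7) and 15.999 (BMS614). Rpa1, the large subunit of the single-strand binding protein RPA, had 14.90, 14.99 and 14.88. Rfc4, a small subunit of the clamp loader, had 13.40, 13.54 and 13.47. Pcna was level on the 3 arrays, and Rpa1 and the brighter probe of Rfc4 were highest on AR7. Rpa2, the middle subunit of RPA, went the other way from Rpa1, with 10.09, 9.91 and 9.98, a difference of -0.18 (SD 0.075) for AR7 against None. The Rpa1 difference with AR7 was 0.085 here and 0.0066 with the scanner's processed signal, where Rpa2 was at -0.13. The loader subunits Rfc2 and Rfc5 were below None with both compounds (-0.12 for each with AR7, and -0.12 and -0.13 with BMS614). Rfc1, the large subunit, had 12.99, 13.03 and 13.15, and was 0.16 above None with BMS614. Rfc3 differed from None by -0.16 with AR7 and -0.022 with BMS614. On the brighter probes the 5 subunits of one loader thus covered the range from -0.16 to 0.14 with AR7. The upper end was Rfc4, whose second probe was at -0.16, and which was at -0.011 with the mean over a gene's probes. The median of the 8 genes was -0.049 with AR7 and -0.021 with BMS614, with 4 and 5 below 0. It was -0.0018 for AR7 against BMS614, a sign that turned under 2 of 6 other ways of processing.

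Okazaki fragments are finished by the flap nuclease Fen1 and the ligase Lig1. Fen1 had 14.33 (None), 14.20 (AR7) and 14.20 (BMS614). Lig1 had 13.97, 13.93 and 13.97. Fen1 differed from None by -0.13 with both compounds (SD 0.049 and 0.046), and Lig1 differed by -0.036 and 0.0051. Neither gene was called.

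Of the 5 genes of nucleotide supply 0 were called in any comparison, and Tyms with BMS614 was the one beyond 2 SD in a comparison with None. Tk1, the salvage kinase of thymidine, had 14.16 (None), 14.15 (AR7) and 14.21 (BMS614). Rrm2, the small subunit of ribonucleotide reductase, had 14.09, 14.13 and 14.10. Its large subunit Rrm1 had 13.42, 13.38 and 13.47. Of these, Tk1 and Rrm1 were highest on BMS614 and Rrm2 on AR7. Tyms, which makes thymidylate, had 9.97, 9.97 and 10.12, so that the None and AR7 arrays matched and BMS614 was 0.15 above None (SD 0.066). Dut, which removes dUTP, differed by 0.020 with AR7 and -0.017 with BMS614. The median of the 5 genes was 0.0015 with AR7, a sign that turned under 2 of 6 other ways of processing, 0.050 with BMS614 (4 of 5 above 0) and -0.062 between the compounds. Over the same 6 the median with BMS614 ran from 0.012 to 0.050.

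Chromatin behind the fork is rebuilt by the histone chaperone CAF-1 and marked with the help of Uhrf1, which brings the maintenance methyltransferase to new DNA. Uhrf1 had 13.23 (None), 13.27 (AR7) and 13.27 (BMS614) on its brighter probe. Chaf1a, the large subunit of CAF-1, had 11.55, 11.44 and 11.39. Chaf1b, the middle subunit, had 13.42, 13.45 and 13.38. On the brighter probes Chaf1a was the lowest of all 45 genes with BMS614 (-0.16, SD 0.051), and it was below None with AR7 too (-0.11, SD 0.055). Fen1 was lowest instead with the RMA background under either other scaling and in the deposited table. Pole was lowest with the mean over a gene's probes. The partner Chaf1b differed by 0.029 with AR7 and -0.037 with BMS614 on its brighter probe. Its second probe was at -0.043 and -0.22 (SD 0.052), so the contrast with BMS614 rests on the choice of probe. The group's median with AR7 (0.029) turned negative under 3 of 6 other ways of processing.

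The G1/S regulators held the one called gene. Ccne1 and Ccne2 are the E cyclins that drive entry into S phase, and E2f1 is an activating E2F factor. Ccne2 had log2 signals of 6.41 (None), 6.03 (AR7) and 6.57 (BMS614). Its array order was AR7, None, BMS614 from lowest to highest. The difference was -0.38 for AR7 against None (a fold of 0.77, SD 0.23), 0.16 for BMS614 against None (SD 0.20) and -0.54 for AR7 against BMS614 (a fold of 0.688, SD 0.22). Its probe was the dimmest of the 45, and the first 2 differences were within 2 SD. Under 3 of 6 other ways of processing the difference from None with AR7 was short of 1.2-fold: -0.23 with the scanner's processed signal, -0.20 with normexp background correction and -0.25 in the deposited table. Between the compounds it stayed past 1.2-fold in all 6, though only just with normexp (-0.264). The brighter probe of Ccne1 had 12.63, 12.64 and 12.64, the narrowest range of the 45. Its second probe had 7.75, 7.39 and 7.63, lowest on AR7 with a difference from None of -0.36 (SD 0.13), so the 2 probes of this gene did not match. E2f1 had 11.01, 10.97 and 10.92, differences from None of -0.040 with AR7 and -0.092 with BMS614. The sign of the group's median turned under 1 of 6 other ways of processing with BMS614 and under 5 of 6 between the compounds.

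The genes beyond 2 SD of repeated spots came from several roles. The 11 below None with AR7 were Cdc6, Mcm6, Gins1, Gins2, Prim1, Pole2, Rfc2, Rfc3, Rpa2, Fen1 and Chaf1a. The 7 below None with BMS614 were Cdt1, Mcm6, Gins2, Rfc2, Rfc5, Fen1 and Chaf1a. Both sets of differences use the one None array, whose part in this was not tested, so genes named in both are no independent repeat. Without that array, AR7 against BMS614, Mcm6 differed by -0.0028, Gins2 by -0.008, Rfc2 by -0.0064, Fen1 by 0.0023 and Chaf1a by 0.049.

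The genes with 2 probes gave a check within each array. For Cdc6 the probes were close, at -0.14 and -0.12 with AR7 and -0.012 and 0.088 with BMS614. For Rfc4 they had opposite signs, 0.14 and -0.16 with AR7 and 0.065 and -0.18 with BMS614, with SDs of 0.048 to 0.066, so that the highest difference of the 45 genes with AR7 rests on the choice of probe. The second probe of Ccne1 was at -0.36 with AR7 (SD 0.13), where the brighter probe was at 0.012. The second probes of Uhrf1 were at -0.30 and -0.58 (SD 0.23 and 0.20), where the brighter probe was at 0.045 and 0.040. The second probe of Pole was dim, at 0.15 and -0.66 (SD 0.43 and 0.35). For Chaf1b the second probe was at -0.043 and -0.22 and the brighter at 0.029 and -0.037. Which transcripts each probe of a pair detects was not tested.

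**Figure D3:**
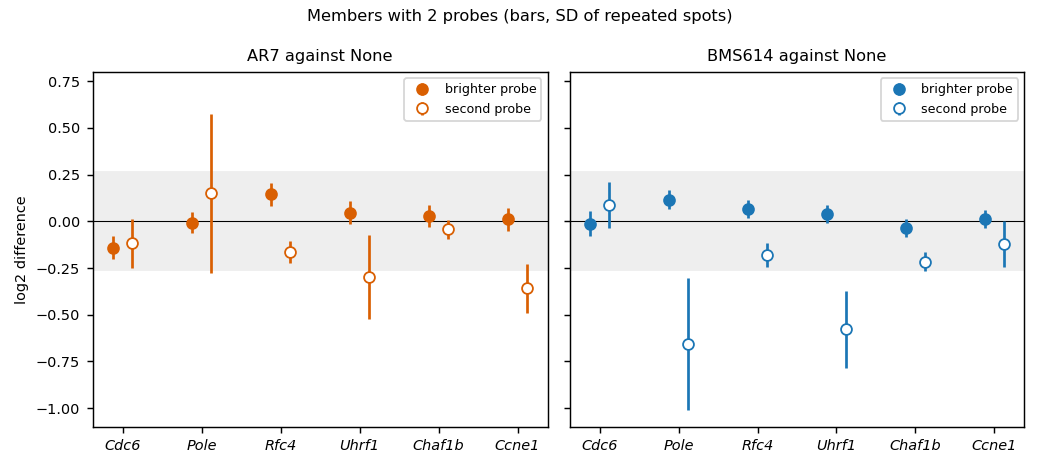
Log2 difference (y axis) from None with AR7 (left) and BMS614 (right) for the 6 genes on 2 probes, filled points for the brighter and open points for the second probe, with bars of 1 SD of repeated spots and a grey band for differences under 1.2-fold. The open points of Pole and Uhrf1 with BMS614 (-0.66 and -0.58) and of Uhrf1 and Ccne1 with AR7 (-0.30 and -0.36) lie below the band while their filled points lie inside it.

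Differences are given side by side for members with and without an E2F-type word, with no test. With AR7 the median difference from None was -0.053 for the 14 genes with an E2F-type word and -0.034 for the 23 without one. With BMS614 it was -0.004 and -0.019. Between the compounds it was -0.040 and 0.005. In each comparison the values of the 2 sets covered overlapping ranges, -0.165 to 0.075 and -0.177 to 0.144 with AR7.

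Other genes of the cell cycle were taken from lists of 63 further replication and S phase genes, 35 genes of mitosis and G2/M, and 17 D cyclins, CDK inhibitors and Rb family genes. Of the further replication genes 62 were tested, with a median of -0.033 with AR7 (43 below 0, 4 called higher and 0 lower). Of all named genes 5.92% were called higher and 6.35% lower. With BMS614 the median of the list was 0.0004, which turned negative under all 6 other ways of processing. There 1 was called higher and 1 lower (6.87% and 7.61% of all named genes). Between the compounds the median was -0.011, with 3 called higher and 3 lower (6.99% and 6.73% of all named genes). E2F-type words lay in windows of 16 of the 50 genes of this list with an entry (32.0%). Atr, the kinase that responds to stalled forks, had 11.57 (None), 11.88 (AR7) and 11.83 (BMS614), with None the lowest. Its differences from None were 0.30 and 0.26 (SD 0.055 and 0.051), so that it was called with AR7 and just short of 1.2-fold with BMS614. Dna2, a nuclease of Okazaki fragments, had 9.18, 9.45 and 9.33, and Clspn, a checkpoint adaptor, had 7.93, 8.20 and 8.14, both lowest on None and called higher with AR7. Cdc7, the kinase that fires origins, was called higher with AR7 (0.48, SD 0.43) on a dim probe of 4.90, 5.38 and 4.70. Dbf4, its activating subunit, had 9.67, 9.49 and 9.81, lowest on AR7 with a difference of -0.32 between the compounds (SD 0.066). Asf1a, a histone chaperone, and Mcm9, an MCM relative, were called with BMS614 in opposite directions (0.31, SD 0.20, and -0.44, SD 0.35), both on dim probes.

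The genes of mitosis and G2/M lay further below None with AR7 than the replication genes did, which is given as a description. Of 34 tested, 29 were below None with AR7 with a median of -0.11. Of these 34, 2 were called lower and 0 higher, beside 6.35% and 5.92% of all named genes. The 2 called lower were Cdkn3, a phosphatase of cyclin-dependent kinases, and Kif11, a spindle motor. Cdkn3 had 11.71 (None), 11.44 (AR7) and 11.62 (BMS614), and Kif11 had 10.02, 9.75 and 10.10. AR7 was the lowest array for both. Cdc25c, the phosphatase that starts mitosis, and the motor Kif20a differed from None by -0.25 and -0.20 with AR7. Against BMS614 the list's median was also -0.11, with 30 of 34 below 0. Kif11 was the 1 gene called lower (-0.35), beside 6.73% of all named genes. With BMS614 against None the median was 0.017, which turned negative under 2 of 6 other ways of processing. Kif23, a motor of cytokinesis, was the 1 gene called higher (0.30, from 10.86 to 11.17), beside 6.87% of all named genes. Mki67, a common proliferation marker, had 13.47, 13.48 and 13.69, highest on BMS614. Aurkb went the other way, with 10.02, 9.89 and 9.87, a difference of -0.16 with BMS614 (SD 0.066). Past 2 SD of repeated spots, 4 genes of the list were higher and 3 lower with BMS614. Over the 6 other ways of processing the median of the list with AR7 against None ran from -0.14 to -0.10, and that of the 45 replication genes from -0.072 to -0.040. In the 28 genes of this list with a promoter window, E2F-type words lay in 3.57% and CCAAT in 78.6%.

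Of the D cyclins, CDK inhibitors and Rb family 14 genes were tested, with medians of -0.018 with AR7 and 0.021 with BMS614. With AR7 0 were called higher and 1 lower, beside 5.92% and 6.35% of all named genes. With BMS614 2 were called higher and 0 lower, beside 6.87% and 7.61%. Cdk6, a G1 kinase, was called lower with AR7 (-0.33, SD 0.23) on a dim probe of 6.53 (None), 6.20 (AR7) and 6.63 (BMS614). Cdkn1a, the inhibitor p21, had 10.89, 11.02 and 10.86, a difference of 0.13 with AR7 (SD 0.061). Rbl2, a repressor of cell cycle genes in quiescent cells, had 8.22, 8.23 and 8.54 and was called higher with BMS614, as was E2f5, a repressor E2F, with 7.99, 8.09 and 8.26. E2f4 went the other way, with 10.65, 10.62 and 10.44, a difference of -0.21 with BMS614 (SD 0.066), short of 1.2-fold. Past 2 SD of repeated spots, 5 genes of the list were higher and 4 lower with BMS614. Rbl1, a relative of Rbl2, had 10.67, 10.55 and 10.89, and was called lower with AR7 than with BMS614 (-0.34, SD 0.056). Both Rb relatives were highest on the BMS614 array. Cdk6, Rbl1 and Rbl2 were the 3 genes of the list called lower for AR7 against BMS614, beside 6.73% of all named genes.

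**Figure D4:**
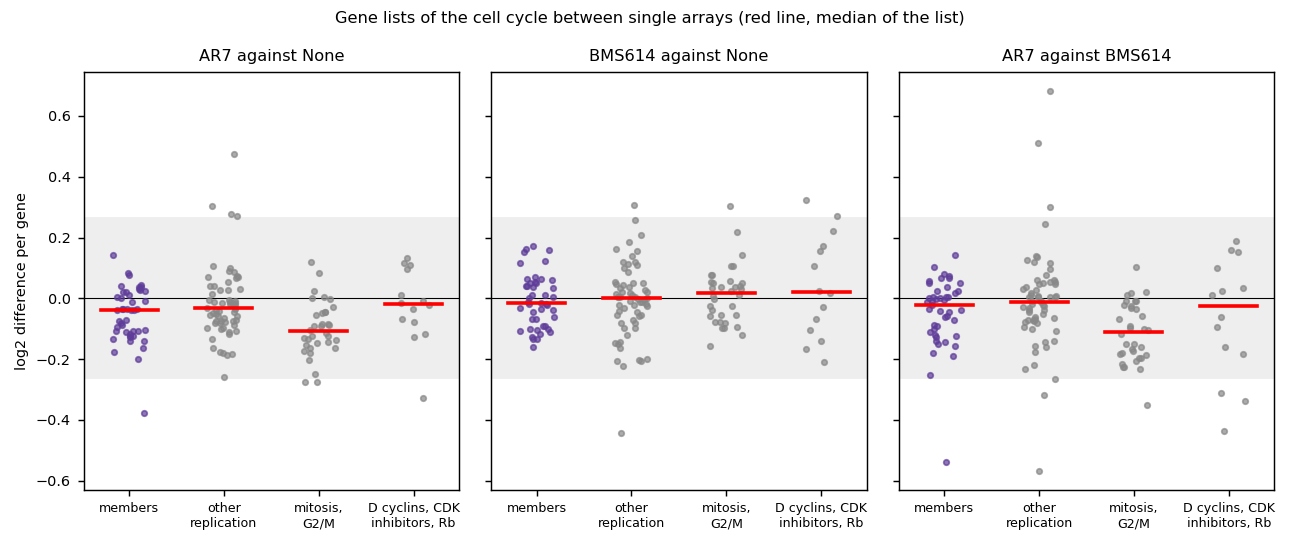
Log2 difference (y axis) of single genes for AR7 against None, BMS614 against None and AR7 against BMS614, for the 45 replication genes (purple, members), the further replication genes, the mitosis and G2/M genes and the D cyclins with CDK inhibitors and Rb family (grey), with the list median in red and a grey band for differences under 1.2-fold. The mitosis and G2/M median lies at -0.11 in both comparisons that hold the AR7 array and at 0.017 in the other, where the 45 genes have medians of -0.039, -0.022 and -0.017.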

How the data were processed

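RNA of 3 cultures was labelled with Cy3 and hybridized to one-colour Agilent arrays, all on 1 slide, and samples were grouped by the treatment in their labels. The authors deposited scanner files with the intensity of each spot, not yet normalized, and 1 table of processed intensity whose scaling is not given in the sources used here. Against the scanner files that table is on a linear scale with no stated centring, it holds levels and so has no direction, and its column medians were 65 (None), 70.7 (AR7) and 67.5 (BMS614). The submitters' notes name RMA and oligo.

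Here the median pixel intensity (the files used hold no mean) received the RMA convolution background, quantile normalization over the 3 arrays and log2. Control and outlier spots were left out. Accessions were matched to RefSeq symbols, which named 27235 of 55681 probes. The probe with the highest mean signal stood for a gene, and genes well above background on both arrays compared were counted. Differences were described at 1.2-fold with no test, and the number of arrays limits the precision. The SD of repeated spots came from 267 probes printed 10 times, in 10 bins of signal. The counting was tested on simulated data. R 4.3.3, limma 3.58.1, Python 3.11.15, numpy 2.4.6, pandas 2.3.3 and matplotlib 3.10.9 were used.

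The members and lists were chosen with earlier results of these data known. All 45 members are named. Values on every array are given for members past 1.2-fold with either compound and otherwise for up to 3 of a group's brightest probes, and for further members chosen after their values were seen. Of each other list, up to 4 genes with the largest differences per comparison were eligible. The alternatives were the scanner's processed signal under 75th percentile scaling, normexp (offset 50) followed by quantile normalization, the RMA background scaled to the 75th percentile or on 270 spike-in spots, the deposited table (values under 16 set to 16), the mean over a gene's probes, other filters on dim probes, and 1.5-fold and 2-fold thresholds.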

Additional observations from a re-analysis of the deposited data

How the results depend on the processing

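No paired analysis was possible because the arrays carry no replicate numbers. Scaling on spike-in spots shifted the all-gene median by 0.19 (AR7 against None), 0.34 (BMS614 against None) and -0.14 (AR7 against BMS614), so differences under it are relative to that median. Over 6 alternatives (5 of background, scaling or source, and the mean over a gene's probes) the median of the 45 genes stayed below 0, from -0.072 to -0.040 for AR7 against None, from -0.031 to -0.016 for BMS614 against None and from -0.052 to -0.018 for AR7 against BMS614. The number of genes below 0 ran from 29 to 39, 24 to 28 and 25 to 32, and 32, 35 and 35 of 45 genes kept their sign in all 6. At a mean log2 signal of 12 or more, added after seeing the data, 29 genes gave medians of -0.034, 0.0051 and -0.011, so that the sign for BMS614 turned.

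The count of genes called lower with AR7 fell from 1 to 0 with the processed signal, normexp, the deposited table, a mean log2 signal of 8 or more, 1.5-fold and 2-fold, and the cause was not tested for the first 3, while the others leave out the dim Ccne2 or ask for more than its difference. The count lower for AR7 against BMS614 fell from 1 to 0 with a mean log2 signal of 8 or more, 1.5-fold and 2-fold in the same way. With the mean over a gene's probes, 2 genes (Pole at -0.27 and Uhrf1) were called lower with BMS614 in place of 0, and 1 (Pole at 0.34) higher for AR7 against BMS614 in place of 0, through their second probes. No count moved without a filter on dim probes. The planned mean pixel intensity was not run because the files used hold only the median. Spot error limits what dim probes such as that of Ccne2 can show.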
